A study of Mus musculus with 18 samples.

Results

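The genes described here are 34 markers of astrocytes and radial glia, measured in GFP-positive cells sorted from the mouse brain as cortical interneurons. They were chosen by name, and each was read through the probe set with the highest mean among those that carry its symbol alone. All 34 were on the array, 33 of them passed the filter on dim probe sets and were tested among 14292 genes, and Gjb6 was too dim to test. The members cover glutamate uptake and metabolism, water, ion and gap junction proteins, lipid carriers and secreted proteins, receptors, the cytoskeleton, radial glia and extracellular matrix, and metallothioneins.

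The study asked how interneurons of the caudal ganglionic eminence (CGE), an embryonic source of superficial cortical interneurons, change while they migrate and settle, with and without Htr3a, a subunit of the serotonin-gated channel. All 18 samples were GFP-positive cells sorted from the brains of GAD65-GFP mice, in which GFP follows GAD65, an enzyme of GABA synthesis. Control mice carried GAD65-GFP alone, and Htr3a-KO mice carried GAD65-GFP together with the Htr3a knockout; the labels name no allele. Cells were taken at E14.5 (embryonic, tangential migration), at E18.5 (entry into the cortical plate) and at postnatal day 2 (P2, settling). Each of the 6 groups had 3 arrays from 3 litters, each array with RNA pooled from at least 4 brains, so no value belongs to 1 animal.

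Radial glia are the stem cells of the embryonic cortex. They divide near the ventricle, guide migrating neurons along their processes, and towards birth turn to the production of astrocytes. Astrocytes clear glutamate and potassium from the space around synapses, supply lipids to neurons and line blood vessels with their endfeet. Postmitotic GABAergic interneurons are not a usual source of most of these transcripts.

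Markers of interneurons were read together with markers of other cell types in the sorted cells. Gad1 and Gad2, which encode the enzymes of GABA synthesis, read 12.34, 12.29 and 10.88 and 11.57, 11.38 and 9.34 in the E14.5 control arrays, so array 3 was lower in both than arrays 1 and 2. Over all 18 arrays Gad1 lay between 10.88 and 12.34 and Gad2 between 8.44 and 11.57. Neurod6, a transcription factor of excitatory neurons, lay between 8.91 and 12.38. The mean per array of 12 excitatory neuron markers was 10.24 to 10.86 in E14.5 controls and 8.50 to 8.61 in P2 controls. That of 17 GABAergic markers was 8.61 to 9.57 and 9.01 to 9.15. Levels of different probe sets do not give shares of cells. Htr3a, the targeted gene, was below every control array of its age in every Htr3a-KO array, by −0.75 ± 0.26 at E14.5 (log2 difference ± SE, adjusted p = 0.708), −3.51 ± 0.26 at E18.5 (7.66e-06) and −1.94 ± 0.26 at P2 (0.0109), in limma. The position of its probe set against the deleted part is not given in the sources used here. Array medians lay between 6.35 and 6.46, and correlations between arrays of 1 group between 0.974 and 0.995. The share of each cell type was not tested. In RNA from mixed cells, fewer cells of a type and less RNA per cell cannot be told apart.

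Between E18.5 and P2 most of the astrocyte and radial glia genes rose in both genotypes. Read through the probe set with the highest mean, Vim, Nes, Hopx, Id4 and S100b passed in neither, and Fabp7 passed in controls alone. In controls 28 of the 33 tested members rose and 0 fell, where 9.96% of all genes tested rose and 9.75% fell, and the median member differed by +1.96 on the log2 scale against −0.04 over all genes. In Htr3a-KO samples 27 rose and 0 fell, where 13.5% of all genes rose and 15% fell, with a median of +1.92 against 0.00. The changes reached from 1.68-fold for Ptprz1 to 20.02-fold for Apoe and, from a dim start, a log2 difference of +6.08 for Aqp4. Values are log2 intensities after the authors' normalization, fold changes are the antilog of the difference between group means, errors are SE unless SD is written, and a gene passed at a limma p under 0.05 after Benjamini-Hochberg adjustment over all 14292 genes. Since 3 arrays make a group, the number of arrays limits the precision.

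**Figure D1:**
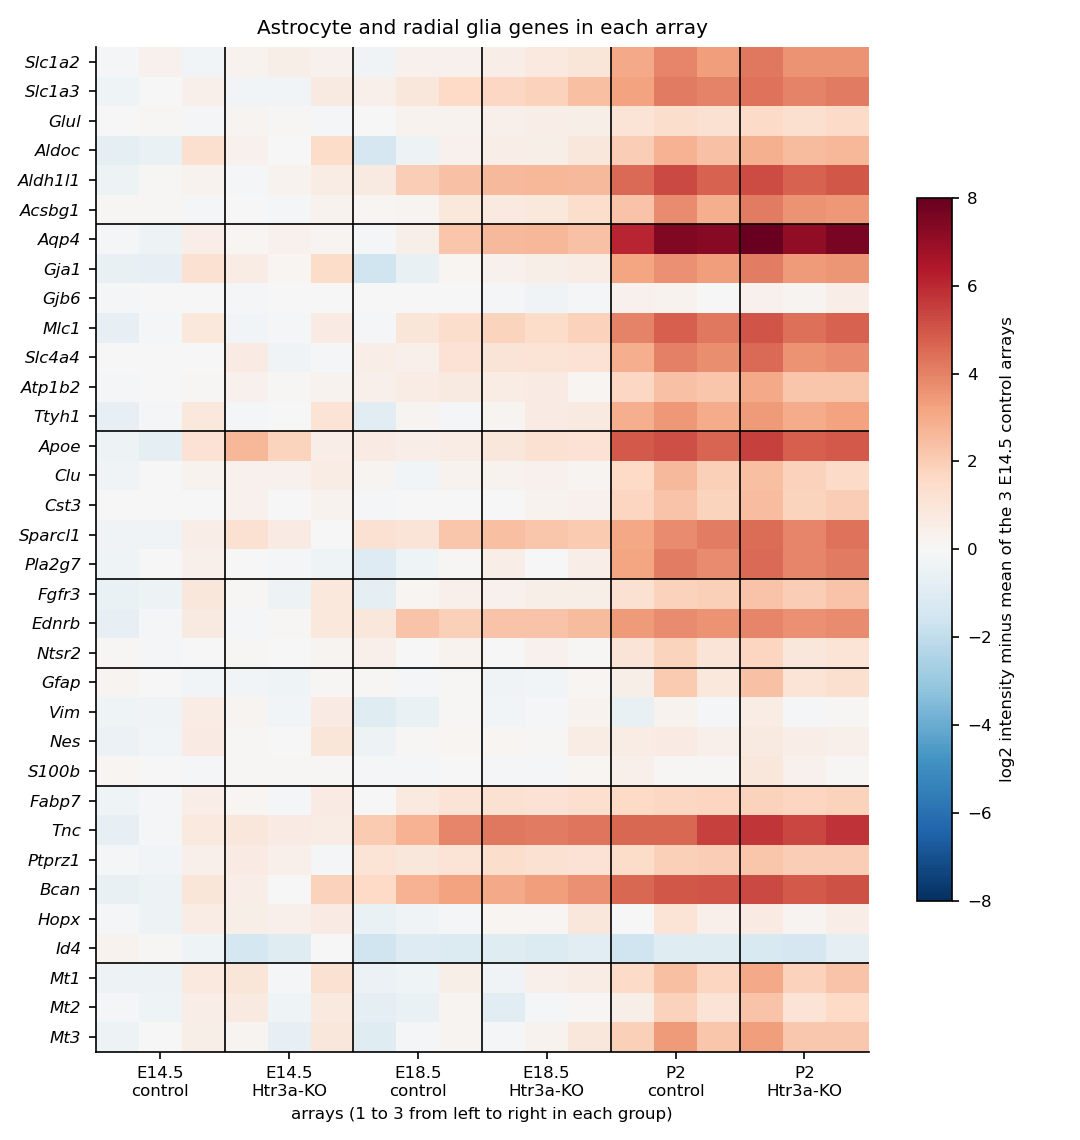
Log2 intensity of each of the 34 genes in each of the 18 arrays, minus the mean of the 3 E14.5 control arrays of that gene, with arrays in columns by age and genotype and genes in rows by role; red is above the E14.5 control mean and blue below it. The 6 columns of P2 are red for most genes, E18.5 shows a rise for Tnc, Bcan, Ednrb and Aldh1l1, and Id4 is blue at E18.5 and P2.

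All 6 genes of glutamate uptake and metabolism rose from E18.5 to P2 in both genotypes. Slc1a2 encodes the main glutamate transporter of astrocytes. It read 8.05, 8.58 and 7.99 in E14.5 controls, 7.92, 8.56 and 8.58 at E18.5, then 11.23, 12.14 and 11.55 at P2. In Htr3a-KO arrays Slc1a2 read 8.47, 8.66 and 8.54 at the first age, then 8.75, 9.01 and 9.17, then 12.44, 11.77 and 11.83. Over the first step Slc1a2 differed by +0.15 in controls and by +0.42 in Htr3a-KO samples, and neither passed. In the Htr3a-KO samples every E18.5 array lay above every E14.5 array. Every P2 array lay above every earlier array. From E18.5 to P2 Slc1a2 rose 9.76-fold in controls (adjusted p = 1.16e-06, limma) and 8.21-fold in Htr3a-KO samples (2.61e-06). Slc1a3, the glutamate transporter shared by radial glia and astrocytes, read 7.17, 7.51 and 7.92 in E14.5 controls, 7.93, 8.45 and 9.11 at E18.5, then 10.76, 11.71 and 11.5 at P2. For Slc1a3, Htr3a-KO arrays read 7.34, 7.34 and 8.26, then 9.18, 9.39 and 9.91, then 11.9, 11.51 and 11.67. The earlier step of Slc1a3 was +0.96 ± 0.33 in controls, which did not pass (adjusted p = 0.0730, limma), and +1.85 ± 0.33 in Htr3a-KO samples, which did (0.00208), and in the later step it rose 7.09-fold and 4.59-fold.

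Glul, glutamine synthetase, turns the glutamate taken up into glutamine. It read 10.94, 10.99 and 10.74 in E14.5 controls, 10.95, 11.19 and 11.19 at E18.5, then 12.01, 12.27 and 12.08 at P2. In Htr3a-KO arrays Glul read 11.09, 11 and 10.81, then 11.27, 11.42 and 11.33, then 12.45, 12.14 and 12.44. Its arrays varied little within groups, and it rose 2.01-fold after E18.5 in controls and 2.00-fold in Htr3a-KO samples. Aldoc encodes the aldolase of astrocyte glycolysis. It read 9.58, 9.82 and 11.58 in E14.5 controls, 8.99, 9.93 and 10.64 at E18.5, then 12.27, 13.13 and 12.67 at P2. In Htr3a-KO arrays Aldoc read 10.66, 10.34 and 11.8, then 10.86, 10.78 and 11.26, then 13.19, 12.85 and 12.98. E14.5 control array 3 and E14.5 Htr3a-KO array 3 stood above their groups, and after E18.5 Aldoc rose 7.14-fold in controls and 4.11-fold in Htr3a-KO samples.

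Aldh1l1, a folate enzyme used as a general marker of astrocytes, read 5.52, 5.98 and 6.19 in E14.5 controls, 6.61, 7.88 and 8.21 at E18.5, then 10.45, 11.16 and 10.6 at P2. For Aldh1l1, Htr3a-KO arrays read 5.77, 6.15 and 6.5, then 8.48, 8.53 and 8.48, then 11.13, 10.61 and 10.87. No array of one age overlapped the next in either genotype. Aldh1l1 rose 3.18-fold and then 9.0-fold in controls, and 5.12-fold and then 5.18-fold in Htr3a-KO samples. Acsbg1, a long-chain acyl-CoA synthetase, read 6.3, 6.33 and 6.08 in E14.5 controls, 6.39, 6.46 and 7.1 at E18.5, then 8.49, 10.02 and 9.16 at P2. In Htr3a-KO arrays Acsbg1 read 6.18, 6.06 and 6.53, then 7.01, 7.11 and 7.63, then 10.4, 9.8 and 9.72. It rose 5.95-fold in controls and 6.60-fold in Htr3a-KO samples after E18.5, with P2 control array 2 above the other P2 controls. The adjusted p for this step was at most 0.00112 in controls and 0.00685 in Htr3a-KO samples over these 6 genes (limma). The earlier rise of Glul in Htr3a-KO samples (+0.37, adjusted p = 0.0442) and that of Acsbg1 (+0.99, 0.0425) were each lost without any 1 of the 6 arrays compared, with an adjusted p of 0.0546 to 0.150 for Glul and 0.0519 to 0.126 for Acsbg1.

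The 6 tested genes of water, ion and gap junction handling also all rose between E18.5 and P2 in both genotypes, with a median of +3.49 in controls and +2.95 in Htr3a-KO samples. Aqp4, which lets water through the endfeet of astrocytes, read 3.64, 3.29 and 4.22 in E14.5 controls, 3.6, 4.17 and 5.91 at E18.5, then 9.78, 11.11 and 11.02 at P2. For Aqp4, Htr3a-KO arrays read 3.87, 4.03 and 3.94, then 6.28, 6.38 and 6.07, then 11.62, 10.83 and 11.29. Aqp4 passed the filter through its P2 level: its control means at E14.5 and E18.5 and its Htr3a-KO mean at E14.5 lay below 5.255, the level of that filter, so its differences are against a dim reading and give no measure of how much its RNA changed. The E18.5 control arrays were far apart, whereas the 3 Htr3a-KO arrays of that age lay close together and above each of them. The step to P2 was +6.08 ± 0.46 in controls (adjusted p = 1.25e-06, limma) and +5.0 ± 0.46 in Htr3a-KO samples (7.20e-06), after +0.84 ± 0.46 (0.272, not passed) and +2.30 ± 0.46 (0.00468) over the earlier step.

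Gja1, connexin 43 of astrocyte gap junctions, read 8.16, 8.06 and 9.95 in E14.5 controls, 7.14, 8.14 and 8.85 at E18.5, then 11.86, 12.39 and 12.06 at P2. In Htr3a-KO arrays Gja1 read 9.29, 8.9 and 10.19, then 9.08, 9.17 and 9.33, then 12.79, 12.12 and 12.24. Gja1 had no rise before E18.5 that passed, and then rose 16.7-fold in controls and 9.13-fold in Htr3a-KO samples. Gjb6, connexin 30, the other main astrocyte connexin, lay between 3.45 and 4.22 in all 18 arrays and was not tested. Mlc1, a membrane protein of endfeet, read 5.53, 6.04 and 7.08 in E14.5 controls, 6.15, 7.16 and 7.61 at E18.5, then 10.17, 10.98 and 10.46 at P2. For Mlc1, Htr3a-KO arrays read 6.02, 6.04 and 6.88, then 7.98, 7.69 and 8.08, then 11.24, 10.62 and 10.91. Mlc1 rose 11.8-fold after E18.5 in controls and 8.04-fold in Htr3a-KO samples, with no overlap between E18.5 and P2.

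Slc4a4, the sodium bicarbonate cotransporter, read 7.17, 7.22 and 7.15 in E14.5 controls, 7.74, 7.59 and 8.34 at E18.5, then 10.07, 11.22 and 10.92 at P2. In Htr3a-KO arrays Slc4a4 read 7.85, 6.92 and 7.1, then 8.18, 8.3 and 8.35, then 11.72, 10.79 and 10.98. Its later rise was 7.19-fold in controls and 7.4-fold in Htr3a-KO samples. Atp1b2, the sodium pump subunit of glia, read 9.3, 9.33 and 9.46 in E14.5 controls, 9.76, 9.94 and 10.11 at E18.5, then 11, 11.69 and 11.56 at P2. For Atp1b2, Htr3a-KO arrays read 9.73, 9.46 and 9.63, then 9.98, 10.05 and 9.49, then 12.38, 11.61 and 11.6. Atp1b2 rose 2.79-fold and 4.07-fold after E18.5, and P2 Htr3a-KO array 1 was the highest of its group. Ttyh1, a chloride channel protein of neural progenitors and glia, read 7.07, 7.61 and 8.59 in E14.5 controls, 6.85, 7.97 and 7.58 at E18.5, then 10.69, 11.2 and 10.73 at P2. In Htr3a-KO arrays Ttyh1 read 7.63, 7.7 and 8.83, then 8, 8.41 and 8.46, then 11.17, 10.74 and 11. It rose 10.6-fold in controls and 6.41-fold in Htr3a-KO samples. Over the 6 tested genes the adjusted p of this step was at most 0.000277 in controls and 0.000259 in Htr3a-KO samples (limma). Between E14.5 and E18.5 in Htr3a-KO samples, Mlc1 rose by +1.60 (adjusted p = 0.0143, limma), a call lost without array 1 of E14.5 (0.0555) or of E18.5 (0.0501). Slc4a4 rose by +0.99 (0.0389) over the same step, a call lost without array 2 (0.127) or 3 (0.107) of E14.5 or any 1 array of E18.5 (0.0807 to 0.107).

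The 5 lipid carriers and secreted proteins rose from E18.5 to P2 in both genotypes. Apoe, the main lipid carrier of the brain, read 6.82, 6.54 and 8.4 in E14.5 controls, 7.89, 7.78 and 7.87 at E18.5, then 12.17, 12.44 and 11.9 at P2. For Apoe, Htr3a-KO arrays read 9.89, 9.06 and 7.8, then 8.16, 8.47 and 8.41, then 12.72, 12.03 and 12.18. The E14.5 arrays were far apart in both genotypes, those of E18.5 and P2 close together, and Apoe rose 20.02-fold in controls and 15.6-fold in Htr3a-KO samples. Microglia also make Apoe, and their marker list moved at E14.5 with it: its mean per array was 6.27, 6.28 and 7.57 in controls and 9.25, 7.91 and 7.28 in Htr3a-KO samples, the same order of arrays as for Apoe in the Htr3a-KO group. The part of microglial RNA in the Apoe readings was not tested. Clu, the chaperone clusterin, read 8.53, 8.84 and 9.11 in E14.5 controls, 9.03, 8.59 and 9.11 at E18.5, then 10.39, 11.4 and 10.76 at P2. In Htr3a-KO arrays Clu read 9.19, 9.17 and 9.41, then 9.08, 9.15 and 9.07, then 11.22, 10.68 and 10.37. Clu differed by +0.08 in controls and −0.16 in Htr3a-KO samples over the first step, and rose 3.84-fold and 3.15-fold afterwards.

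Cst3, the protease inhibitor cystatin C, read 10.67, 10.74 and 10.77 in E14.5 controls, 10.62, 10.75 and 10.77 at E18.5, then 12.46, 13 and 12.51 at P2. For Cst3, Htr3a-KO arrays read 11.07, 10.78 and 11.03, then 10.78, 11 and 11.07, then 13.2, 12.49 and 12.69. Its first step was −0.01 in controls and −0.01 in Htr3a-KO samples, and its second a rise of 3.85-fold and 3.59-fold. Sparcl1, a secreted glycoprotein that promotes synapses, read 8.23, 8.24 and 9.07 in E14.5 controls, 9.71, 9.57 and 10.76 at E18.5, then 11.6, 12.32 and 12.59 at P2. In Htr3a-KO arrays Sparcl1 read 9.74, 9.14 and 8.51, then 10.91, 10.74 and 10.61, then 12.97, 12.44 and 12.84. Sparcl1 rose over both steps, 2.83-fold and 4.46-fold in controls and 3.08-fold and 3.99-fold in Htr3a-KO samples. The first of these in controls (adjusted p = 0.0127, limma) was lost on leaving out array 1 (0.0581) or 2 (0.0539) of the E14.5 controls or array 3 (0.0670) of the E18.5 controls. Pla2g7, a secreted phospholipase, read 6.81, 7.14 and 7.58 in E14.5 controls, 6.16, 6.81 and 7.3 at E18.5, then 10.31, 11.28 and 10.96 at P2. For Pla2g7, Htr3a-KO arrays read 7.14, 7.1 and 6.83, then 7.69, 7.22 and 7.72, then 11.68, 11.09 and 11.33. It rose 17.1-fold in controls (adjusted p = 7.95e-07, limma) and 14.2-fold in Htr3a-KO samples (1.79e-06), the lowest adjusted p of any member in either genotype.

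All 3 receptors rose after E18.5. Ednrb, the endothelin receptor of radial glia and astrocytes, read 7.01, 7.6 and 8.41 in E14.5 controls, 8.56, 9.95 and 9.6 at E18.5, then 11.09, 11.48 and 11.27 at P2. In Htr3a-KO arrays Ednrb read 7.54, 7.74 and 8.52, then 9.96, 9.97 and 10.19, then 11.59, 11.33 and 11.48. Ednrb rose over both steps without overlap, 3.24-fold and 3.76-fold in controls and 4.31-fold and 2.69-fold in Htr3a-KO samples. Fgfr3, a fibroblast growth factor receptor, read 8.66, 8.76 and 10.08 in E14.5 controls, 8.44, 9.32 and 9.59 at E18.5, then 10.4, 10.98 and 11.08 at P2. For Fgfr3, Htr3a-KO arrays read 9.29, 8.73 and 9.99, then 9.54, 9.61 and 9.61, then 11.47, 11.11 and 11.43. Fgfr3 did not pass in the first step and rose in the second, 3.26-fold (adjusted p = 0.00520, limma) and 3.36-fold (0.00334). Ntsr2, the neurotensin receptor of astrocytes, read 5.96, 5.79 and 5.87 in E14.5 controls, 6.26, 5.93 and 6.13 at E18.5, then 6.91, 7.66 and 6.9 at P2. In Htr3a-KO arrays Ntsr2 read 5.96, 5.85 and 6.11, then 5.87, 6.19 and 5.96, then 7.6, 6.75 and 6.94. Its rise was 2.07-fold in controls and 2.13-fold in Htr3a-KO samples.

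Among the 4 cytoskeletal and calcium-binding genes, read through the probe set with the highest mean, 1 rose after E18.5, Gfap. Gfap, the intermediate filament of mature and reactive astrocytes, read 6.73, 6.58 and 6.28 in E14.5 controls, 6.65, 6.41 and 6.62 at E18.5, then 6.97, 8.63 and 7.4 at P2. For Gfap, Htr3a-KO arrays read 6.29, 6.17 and 6.63, then 6.26, 6.28 and 6.67, then 8.85, 7.65 and 7.83. P2 control array 2 stood apart from the other P2 controls, and the rise was 2.15-fold in controls (adjusted p = 0.0351, limma) and 3.26-fold in Htr3a-KO samples (0.00245). In controls this Gfap probe set no longer passed on leaving out array 1 (0.0728), 2 (0.102) or 3 (0.0622) of E18.5, or array 2 of P2, where the difference was +0.62 (0.162). The other Gfap probe sets above the filter differed by more over this step. They did so by +2.31 and +3.43 in controls and by +2.66 and +3.49 in Htr3a-KO samples, so the size depends on the probe set. Vim, the intermediate filament vimentin of radial glia, lay between 10.59 and 12.22 in all arrays, and its second step was +0.33 ± 0.32 in controls (0.528) and +0.19 ± 0.32 in Htr3a-KO samples (0.681, limma). Nes, the progenitor filament nestin, lay between 8.94 and 10.38, with +0.60 ± 0.28 (0.147) and +0.29 ± 0.28 (0.457) over the same step. S100b, a calcium-binding protein of mature astrocytes, lay between 5.80 and 6.81, with +0.28 ± 0.16 (0.240) and +0.43 ± 0.16 (0.0524). These probe sets of Vim, Nes and S100b did not pass at either step or over the whole span in either genotype. The other S100b probe set above the filter did pass from E18.5 to P2 when every probe set was tested, by +1.58 ± 0.28 in controls (adjusted p = 0.00158, limma) and +1.35 ± 0.28 in Htr3a-KO samples (0.00348), so for S100b the call depends on the probe set.

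Of the 6 genes of radial glia and extracellular matrix, 3 rose and 1 fell between E14.5 and E18.5 in controls, and 4 rose in Htr3a-KO samples. From E18.5 to P2, 4 of them rose in controls and 3 in Htr3a-KO samples. Tnc, the matrix protein tenascin C, read 5.76, 6.24 and 7.16 in E14.5 controls, 8.49, 9.15 and 10.31 at E18.5, then 10.98, 11.01 and 11.83 at P2. In Htr3a-KO arrays Tnc read 7.3, 7.04 and 6.96, then 10.62, 10.54 and 10.65, then 12.1, 11.73 and 12.16. Its first step was the larger, 7.62-fold against 3.88-fold in controls and 11.3-fold against 2.63-fold in Htr3a-KO samples, and no 2 ages overlapped. Bcan, the proteoglycan brevican, read 7, 7.16 and 8.54 in E14.5 controls, 9.15, 10.32 and 10.8 at E18.5, then 12.14, 12.54 and 12.6 at P2. For Bcan, Htr3a-KO arrays read 8.07, 7.55 and 9.39, then 10.62, 10.92 and 11.23, then 12.85, 12.49 and 12.68. Bcan rose 5.75-fold and 5.05-fold in controls and 6.01-fold and 3.36-fold in Htr3a-KO samples. Ptprz1, a receptor phosphatase that binds tenascins, read 10.75, 10.69 and 11.36 in E14.5 controls, 12.05, 11.83 and 12.03 at E18.5, then 12.43, 12.83 and 12.9 at P2. In Htr3a-KO arrays Ptprz1 read 11.6, 11.31 and 10.87, then 12.35, 12.16 and 12.1, then 13.16, 12.9 and 12.92. Its rises were small and of like size over both steps, 2.05-fold and 1.68-fold in controls and 1.92-fold and 1.73-fold in Htr3a-KO samples. Cells of the oligodendrocyte lineage also make Tnc, Ptprz1 and Bcan, and 9 of 11 markers of that lineage rose in the first step in each genotype; their part in these values was not tested.

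Fabp7, the fatty acid binding protein of radial glia, read 11.9, 12.07 and 12.76 in E14.5 controls, 12.25, 13.01 and 13.33 at E18.5, then 13.84, 13.92 and 13.99 at P2. For Fabp7, Htr3a-KO arrays read 12.39, 12.1 and 12.87, then 13.44, 13.43 and 13.58, then 14.11, 13.98 and 14.08. In controls the first step was +0.62 ± 0.25 (adjusted p = 0.131, limma) and the second a rise of 2.08-fold (0.00883). In Htr3a-KO samples it was the first that passed, with 2.04-fold (0.0142, and 0.0567 without E14.5 Htr3a-KO array 2), and the second was +0.57 ± 0.25 (0.0990). The difference between genotypes in these steps was +0.41 ± 0.36 (0.771) and −0.48 ± 0.36 (0.796), neither of which passed. Id4, a repressor of differentiation in neural stem cells, was the one member that fell: it read 12.58, 12.43 and 11.98 in E14.5 controls, 10.75, 11.28 and 11.24 at E18.5, then 10.71, 11.35 and 11.35 at P2. In Htr3a-KO arrays Id4 read 10.9, 11.33 and 12.29, then 11.35, 11.24 and 11.43, then 11.12, 11.01 and 11.62. The step of −1.24 ± 0.29 in controls passed (adjusted p = 0.0129, limma) and was lost when array 1 of the E14.5 (0.0595) or of the E18.5 controls (0.0624) was left out, and that of −0.17 ± 0.29 in Htr3a-KO samples did not pass (0.722). The other Id4 probe sets above the filter differed by more over this step. They did so by −1.82 and −1.80 in controls and by −0.68 and −0.41 in Htr3a-KO samples, so the size depends on the probe set. Hopx, a homeodomain protein of radial glia, lay between 8.53 and 10.17 in all arrays and passed at no step, with +0.83 ± 0.29 in controls after E18.5 (0.0534). Without P2 Htr3a-KO array 1 the second step of Tnc in Htr3a-KO samples was +1.34 (0.0502), and without E18.5 Htr3a-KO array 1 that of Bcan was +1.60 (0.0515). The second step of Ptprz1 in controls, read through its probe set with the highest mean, was lost on leaving out array 2 of the E18.5 controls (0.0545), or array 2 (0.0530) or 3 (0.0562) of the P2 controls.

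The 3 metallothioneins, small proteins that bind zinc and copper, are neighbours on chromosome 8 in the order Mt3, Mt2, Mt1 (GRCm38.p6, Mt3 at chr8:94152607-94154148, Mt2 at chr8:94172618-94173567 and Mt1 at chr8:94178883-94180327, all on the plus strand). Gaps of 18.469 kb and 5.315 kb separate them. Mt1 and Mt2 are known for induction by metals and stress through metal response elements, and Mt3 for its brain expression without that response. The bases before their annotated starts are shown for that contrast, from RefSeq's promoter table of the same build, with the core TGCNCNC of the metal response element searched on both strands and its matches in capitals. For Mt2 (chr8:94172368-94172617) and Mt3 (chr8:94152357-94152606) these are the 250 bases before the start. For Mt1 (chr8:94179056-94179082) they are the 27 bases around its one match, before the listed start of a transcript within the gene.
Mt2: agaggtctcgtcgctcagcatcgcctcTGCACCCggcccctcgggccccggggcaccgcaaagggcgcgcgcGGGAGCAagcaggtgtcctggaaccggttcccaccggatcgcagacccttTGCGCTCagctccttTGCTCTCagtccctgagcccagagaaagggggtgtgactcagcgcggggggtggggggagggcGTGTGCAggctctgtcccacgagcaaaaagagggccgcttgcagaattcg
Mt3: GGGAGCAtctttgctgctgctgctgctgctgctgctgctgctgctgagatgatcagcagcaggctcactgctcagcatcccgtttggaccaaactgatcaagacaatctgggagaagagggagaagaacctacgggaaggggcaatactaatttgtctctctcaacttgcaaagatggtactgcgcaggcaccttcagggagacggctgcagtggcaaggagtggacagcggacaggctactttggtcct
Mt1: ggtcccgctgTGCACACtggcgctcca
Mt2 held 5 matches, 3 on the plus strand and 2 on the minus strand, and Mt3 held 1. The 1 match of Mt1 belongs to a start within its gene. It is thus no count for the bases before the Mt1 gene and cannot be set against those of Mt2 and Mt3. The core is short and common: it stood in 44.4% of all 32851 promoters of the table, and 3 or more matches in 4.65%. A match is a description of letters and not of binding.

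Mt1 read 7.73, 7.75 and 8.92 in E14.5 controls, 7.66, 7.81 and 8.6 at E18.5, then 9.64, 10.54 and 9.87 at P2. For Mt1, Htr3a-KO arrays read 9.12, 7.98 and 9.36, then 7.86, 8.53 and 8.72, then 11.14, 9.98 and 10.44. Mt2 read 9.35, 9.15 and 10.04 in E14.5 controls, 8.8, 9.01 and 9.74 at E18.5, then 9.99, 11.33 and 10.61 at P2. In Htr3a-KO arrays Mt2 read 10.24, 9.19 and 10.29, then 8.69, 9.41 and 9.59, then 11.77, 10.58 and 11.09. Both genes had the same highest and lowest array in each of the 3 Htr3a-KO groups, and rose after E18.5, Mt1 3.98-fold in controls and 4.44-fold in Htr3a-KO samples, and Mt2 2.75-fold and 3.78-fold. Mt3 read 7.34, 7.71 and 8.24 in E14.5 controls, 6.78, 7.61 and 7.97 at E18.5, then 9.64, 11.2 and 10 at P2. For Mt3, Htr3a-KO arrays read 7.99, 7.13 and 8.65, then 7.6, 8.07 and 8.67, then 11.08, 9.93 and 9.94. Mt3 rose 7.09-fold in controls (adjusted p = 0.000857, limma) and 4.61-fold in Htr3a-KO samples (0.00351). Whether the matches bear on these rises was not tested. The Mt2 call in controls (adjusted p = 0.0200) no longer held on leaving out array 1 (0.0834) or 2 (0.0662) of the E18.5 controls or array 2 of the P2 controls (0.0984).

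A second search looked for TTCNNNGAA, the spaced palindrome that STAT factors bind, since STAT signalling is known to promote astrocyte genes. RefSeq's table had an entry for 30 of the 34 members. In the 250 bases before the start, on either strand, 5 of these 30 held it, against 8.13% of all 27025 genes of the table: Aldoc at 2 places, Slc1a3, Acsbg1, Ntsr2 and Pla2g7. The stretches with their matches in capitals, 5′ to 3′ on the strand of the gene, were as follows, on GRCm38.p6. Those of Aldoc and Pla2g7 lie before the start of an inner transcript and thus within the annotated gene, the other 3 before the gene.
Aldoc chr11:78324064-78324092 plus strand: aggggccagaTTCAGTGAAagaagagctg
Aldoc chr11:78324105-78324133 plus strand: tggcagcagtTTCCAGGAAgacctgtggc
Slc1a3 chr15:8710885-8710913 minus strand: ttcaggatccTTCCAAGAAatttcagtta
Acsbg1 chr9:54661893-54661921 minus strand: gaaggctggcTTCATTGAAattctcctca
Ntsr2 chr12:16653398-16653426 plus strand: gttttggaggTTCCCAGAAaggaggtggt
Pla2g7 chr17:43568296-43568324 plus strand: tgttcagtgaTTCCGTGAActttgcggat
All 5 genes rose from E18.5 to P2 in both genotypes, as did 22 members without an entry or without the letters. The full NFI palindrome stood in 0 of the 30 and in 0.0444% of all genes, and the metal response core in 18 of the 30 against 47.2%. No test was made on these shares.

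By the size of the difference, whatever its sign, the second step exceeded the first in 28 of the 33 tested members in controls and in 25 in Htr3a-KO samples. In controls the other 5 were Vim, Tnc, Ptprz1, Bcan and Id4. Over the whole span from E14.5 to P2 in controls 28 members rose and 1 fell, Id4, where 18% of all genes rose and 21.2% fell. In Htr3a-KO samples 28 rose and 0 fell, where 15.6% of all genes rose and 26% fell. The whole-span median was +2.36 in controls and +2.26 in Htr3a-KO samples. Of the genes with a rise in the whole span, Mt2 was least firm: in controls it no longer passed when array 1 (0.102) or 2 (0.130) of E14.5 or array 2 (0.168) or 3 (0.0767) of P2 was left out. In Htr3a-KO samples this held for array 2 of E14.5 (0.120) and array 1 of P2 (0.107). Gfap in controls, read through its probe set with the highest mean, was lost with array 3 of E14.5 (0.0589) or array 2 of P2 (0.0855) left out. The whole span and its steps share arrays.

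From E14.5 to E18.5 fewer members changed. In controls 6 rose, Aldh1l1, Sparcl1, Ednrb, Tnc, Ptprz1 and Bcan, and Id4 fell, where 6.06% of all genes rose and 4.93% fell. In Htr3a-KO samples 13 rose and 0 fell, where 6.26% of all genes rose and 8.88% fell: the same 6 and Slc1a3, Glul, Acsbg1, Aqp4, Mlc1, Slc4a4 and Fabp7. The median member differed by +0.15 in controls and +0.24 in Htr3a-KO samples, against −0.01 and −0.10 over all genes. Leaving out any 1 of the 6 Htr3a-KO arrays compared lowered the 13 to 9 or 10. The control and Htr3a-KO steps share no array, and the 2 genotypes' values of a member differed by a median of 0.34 over the first step and 0.36 over the second. The test of the difference between genotypes passed for 0 of the 33 members at either step (limma; lowest adjusted p 0.685 and 0.719), where 0.007% and 0% of all genes were called, with 3 members at an unadjusted p under 0.05 in the first step (Id4, Pla2g7 and Aqp4) and 0 in the second, where 7.22% and 7.23% of all genes were.

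**Figure D2:**
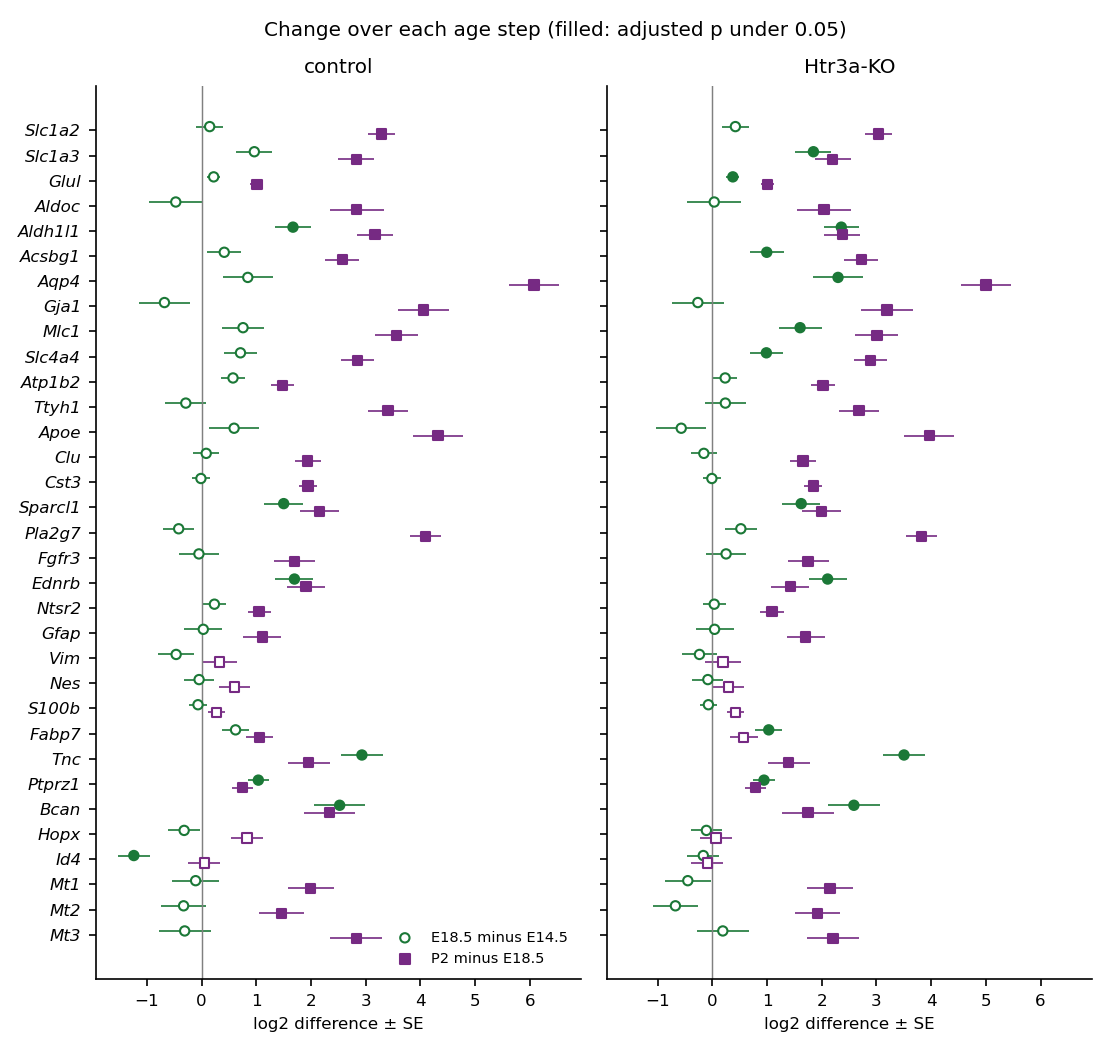
Log2 difference between successive ages for each of the 33 tested genes, controls left and Htr3a-KO samples right, with circles for E18.5 minus E14.5 and squares for P2 minus E18.5; bars are ± SE and filled symbols passed at an adjusted p under 0.05. Most squares lie far right of 0 and are filled, up to 6.08 for Aqp4 in controls, while most circles lie near 0; Aldh1l1, Sparcl1, Ednrb, Tnc, Ptprz1 and Bcan have both filled in both genotypes, and 6 further genes in Htr3a-KO samples.

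Other genes of astrocytes and radial glia moved in part with the members. Of 35 other astrocyte genes 30 rose and 0 fell between E18.5 and P2 in controls, where 9.96% of all genes rose and 9.75% fell. In Htr3a-KO samples 31 rose and 1 fell, where 13.5% of all genes rose and 15% fell. The 4 with the lowest p in controls were Pdk4, a kinase that limits pyruvate oxidation, at 10.3-fold, Slc25a18, a mitochondrial glutamate carrier, at 8.79-fold, the amino acid transporter Slc7a10 at 5.58-fold and the receptor Gpr37l1 at 9.92-fold. From E14.5 to E18.5, 6 of the 35 rose and 1 fell in controls, where 6.06% of all genes rose and 4.93% fell. In Htr3a-KO samples 8 rose and 0 fell, where 6.26% of all genes rose and 8.88% fell. In controls those with the lowest p were the thyroid hormone transporter Slco1c1 (+2.90), the deiodinase Dio2 (+2.51), Tril (+1.98) and the protease Htra1 (+1.63).

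Few of the other radial glia genes passed in the first step. In controls 1 of 29 rose and 3 fell, where 6.06% of all genes rose and 4.93% fell. Mfge8, a secreted adhesion protein, differed by +1.84, and the stem cell factors Pax6, Sox2 and Tead2 by −1.54, −0.83 and −1.13. In Htr3a-KO samples 2 rose, among them Lifr at +0.81, and 4 fell, among them Pax6 at −1.06. Of all genes 6.26% rose and 8.88% fell there. In the second step 11 of 29 rose and 1 fell in controls, where 9.96% of all genes rose and 9.75% fell. They were led by Slc9a3r1 (+2.65), Fgfbp3 (+1.5), Mfge8 (+2.19) and the acyl-CoA binding protein Dbi (+1.30). In Htr3a-KO samples 9 rose and 3 fell, where 13.5% of all genes rose and 15% fell. These lists and their genes were chosen with earlier results of these data known.

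Markers of some other cell types moved over the same ages, and their part in the members' values was not tested. Of all genes 6.06% rose in the first step in controls and 6.26% in Htr3a-KO samples. In the second step 9.96% rose and 9.75% fell in controls, and 13.5% rose and 15% fell in Htr3a-KO samples. Of 11 oligodendrocyte lineage markers 9 rose in the first step in controls and 9 in Htr3a-KO samples, and 10 and 6 rose in the second, with 0 falling in each. Their mean level per array was 6.72 to 6.89 at E14.5, 8.27 to 8.89 at E18.5 and 9.80 to 10.22 at P2 in controls. Of 14 microglia and macrophage markers 3 rose in the second step in controls, where all 14 were higher and 12 had an unadjusted p under 0.05. Their median there was +1.78, against −0.04 over all genes. In Htr3a-KO samples 0 passed and 0 had an unadjusted p under 0.05 (limma), with a median of +0.26. Their level at P2 was 9.93, 8.36 and 7.24 in control arrays 1, 2 and 3 and 6.87 to 7.54 in Htr3a-KO arrays. Without P2 control array 1, 29 members passed the second step in controls in place of 28. That array was also the lowest of its group for 29 of 33 members, so leaving it out raises most P2 control means. The count is thus no test of the part of microglial RNA. Of 12 excitatory neuron markers 7 fell in the second step in controls and 9 in Htr3a-KO samples. The 17 GABAergic markers lay between 8.61 and 9.57 in E14.5 controls, 9.16 and 9.59 in E18.5 controls and 9.01 and 9.15 in P2 controls. Of 14 cell cycle genes 0 passed at either step in either genotype in limma, with 2 at an unadjusted p under 0.05 in the first step in controls and 0 in the second. Of 13 endothelial and mural markers 2 rose in the second step in controls and 1 in Htr3a-KO samples, of 8 meningeal and choroid plexus markers 2 and 2, of 5 ependymal markers 1 and 1, and of 4 erythroid markers 0 and 0, also at an unadjusted p under 0.05. Counts this small were not tested against the shares over all genes. For the age steps, the shares of all genes that were higher or had an unadjusted p under 0.05 are not given. The counts of that kind for these lists thus have no measure beside them.

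**Figure D3:**
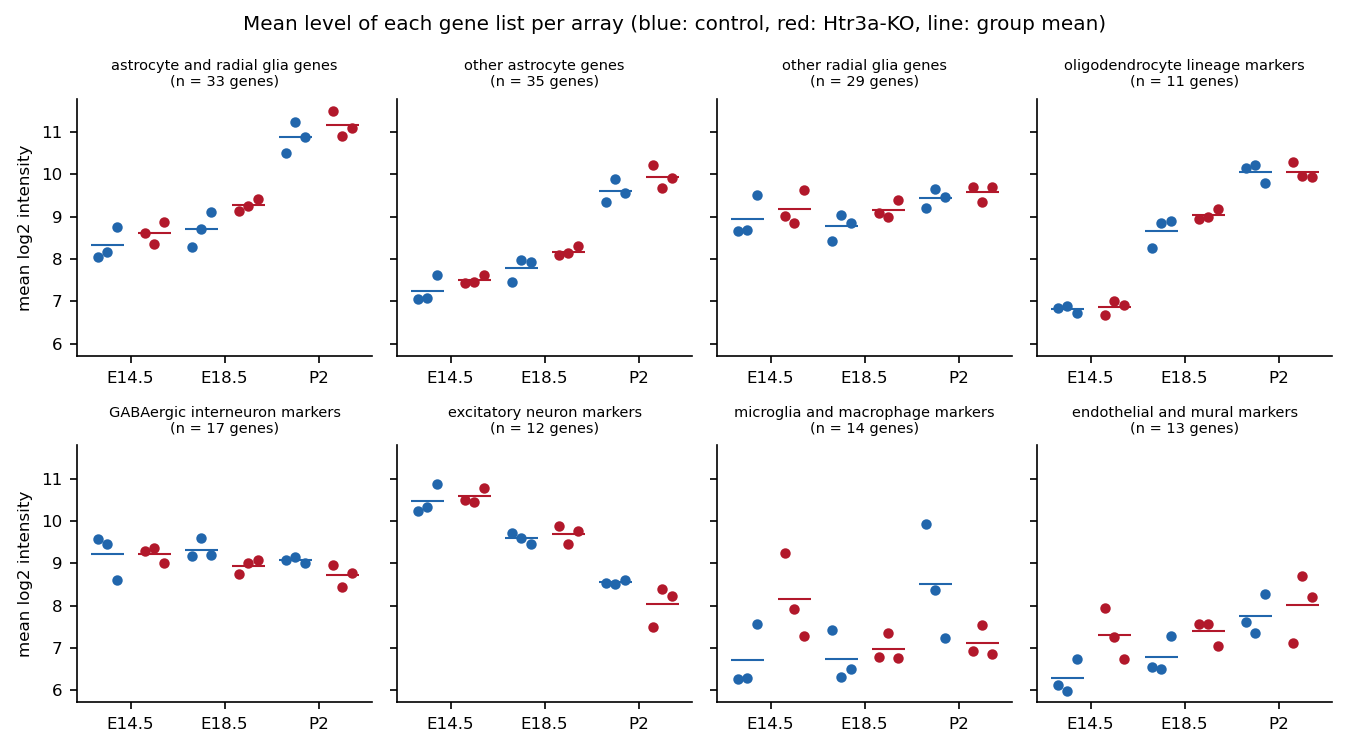
Mean log2 intensity over the tested genes of 8 lists in each array by age, control in blue and Htr3a-KO in red, with a line at the mean of each group of 3 arrays. The astrocyte and radial glia genes, the other astrocyte genes and the oligodendrocyte lineage markers climb to P2, excitatory neuron markers go down, the GABAergic list includes Htr3a, and microglia markers scatter between arrays of a group, up to 9.93 in P2 control array 1.

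Between genotypes 0 of the 33 members passed at any age in limma, where 0.014%, 0.021% and 0.035% of all genes were called in either direction at E14.5, E18.5 and P2. At an unadjusted p under 0.05 there were 2 members at E14.5, 12 at E18.5 and 1 at P2, where 5.86%, 12.9% and 7.58% of all genes were. The differences ran mostly one way. In each age 30 of 33 members were higher in Htr3a-KO samples, where 52.9%, 37.9% and 39.7% of all genes were, with a median of +0.24 at E14.5, +0.60 at E18.5 and +0.28 at P2 against 0.01, −0.06 and −0.04 over all genes. The members of an array share its RNA and are not replicates.

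E18.5 had the widest separation. For 16 of 33 members all 3 Htr3a-KO arrays lay above all 3 controls, where 5.56% of all genes did so: Slc1a2, Slc1a3, Glul, Aldoc, Aldh1l1, Aqp4, Gja1, Mlc1, Ttyh1, Apoe, Cst3, Ednrb, Fabp7, Tnc, Ptprz1 and Hopx. Of the values given above, Aqp4 differed by +1.68 ± 0.46 (adjusted p = 0.213, limma), Tnc by +1.29 ± 0.39 (0.238), Slc1a3 by +1.0 ± 0.33 (0.259) and Aldh1l1 by +0.93 ± 0.32 (0.283), and none passed. The E18.5 control mean of Aqp4, 4.56, lay below the filter level of 5.255, so its difference is against a dim reading. At E14.5 such separation held for 2 members, Clu and Cst3, against 4.98% of all genes, and at P2 for 1, Fgfr3, against 3.35%. Of 35 other astrocyte genes 12 lay wholly above the controls at E18.5, and of 29 other radial glia genes 6, and 0 of either list passed in limma, with 8 and 6 at an unadjusted p under 0.05. The GABAergic marker list holds Htr3a; its other 16 markers, a list chosen after seeing the data, had overlapping mean levels, 9.10 to 9.52 in E18.5 controls and 8.87 to 9.20 in Htr3a-KO arrays. Oligodendrocyte lineage markers went the same way as the members, at 8.27 to 8.89 in controls and 8.95 to 9.19 in Htr3a-KO arrays. Endothelial and mural markers were at 6.50 to 7.28 and 7.05 to 7.57, and microglia markers at 6.31 to 7.43 and 6.76 to 7.35. The part of these in the difference was not tested.

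The E18.5 difference depended on single control arrays and on the weight given to arrays. Its median was +0.31 without E18.5 control array 1 and +0.74 without array 3. Without E18.5 control array 3, Aqp4 passed at +2.36 ± 0.36 (adjusted p = 0.0194, limma). The control arrays left then read 3.6 and 4.17, both below the filter level of 5.255, so that call is against dim readings. With array weights, which count arrays that scatter less more heavily, 10 members passed, all higher in Htr3a-KO samples: Slc1a2, Slc1a3, Aldh1l1, Aqp4, Gja1, Mlc1, Ttyh1, Ednrb, Fabp7 and Tnc, among 876 genes in all. E18.5 Htr3a-KO array 2 had the highest weight of the 18 arrays, 4.14, and E18.5 control array 1 had 2.11.

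At E14.5 the largest member difference between genotypes was that of Apoe, +1.66 ± 0.45 (adjusted p = 0.659, limma), and the groups overlapped. Id4 differed by −0.82 ± 0.29 (0.714), the other member at an unadjusted p under 0.05, also with overlap. Without E14.5 control array 3 Apoe passed at +2.24 ± 0.40 (0.0163), and with array weights Apoe at +2.35 (0.0168) and Id4 at −1.14 (0.0497) passed among 119 genes. E14.5 control array 3 was the array low in Gad1 and Gad2. Meningeal and choroid plexus markers at E14.5 did not overlap, at 6.30, 6.59 and 6.56 in control arrays 1, 2 and 3 and 7.96, 8.29 and 6.93 in Htr3a-KO arrays 1, 2 and 3, whose arrays 1 and 2 were also the higher in Apoe. Endothelial and mural markers were at 5.99 to 6.74 and 6.73 to 7.95, ependymal markers at 5.75 to 5.87 and 5.78 to 6.58, and erythroid markers at 6.59 to 7.62 and 7.2 to 9.12 (controls, then Htr3a-KO). The part of these lists was not tested. At P2 the lowest adjusted p of a member was that of Acsbg1, +0.75 ± 0.31 (0.642). Acsbg1 (chr9:54604886-54661885) lies 5.69 Mb from Htr3a on chromosome 9.

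**Figure D4:**
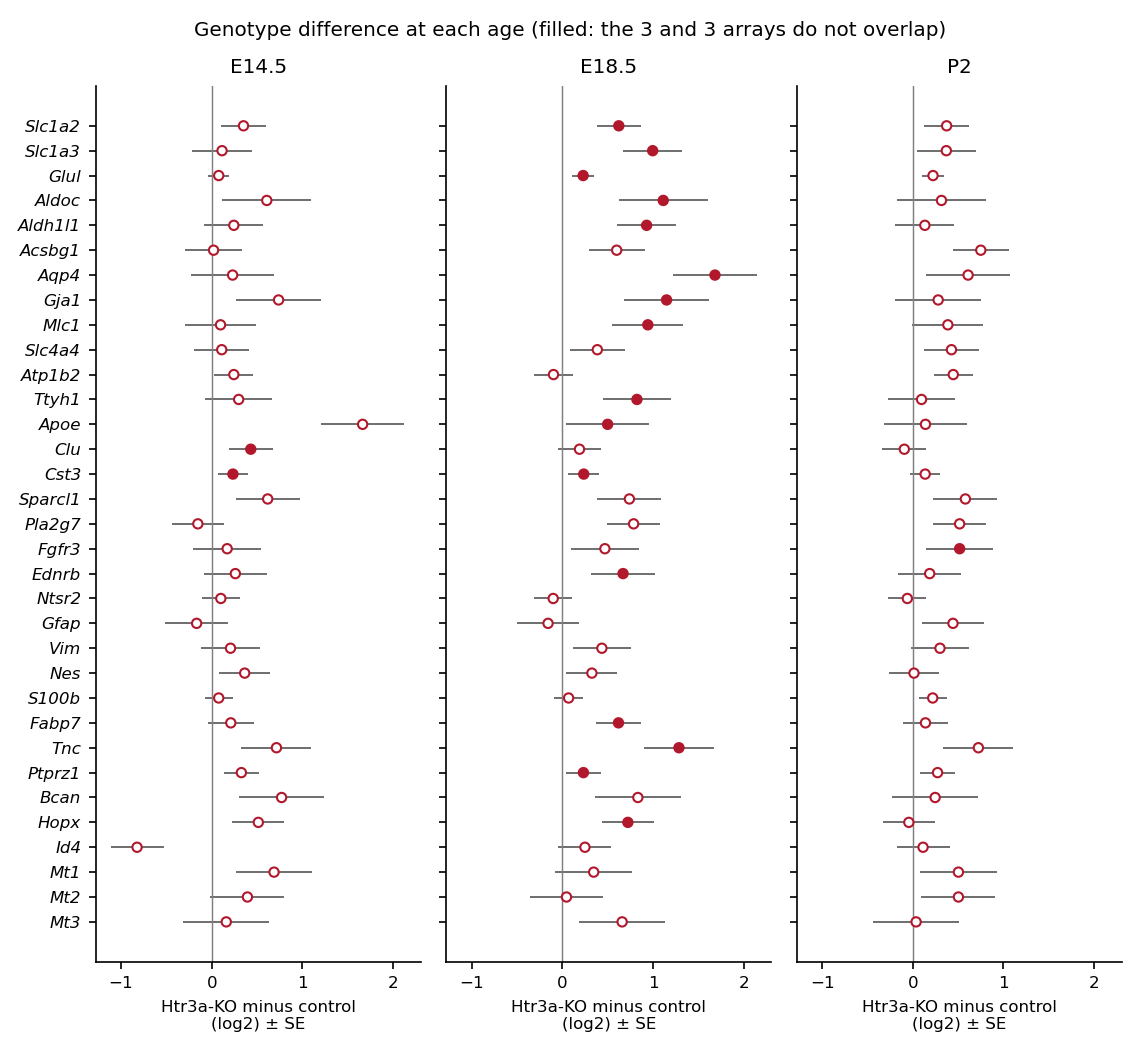
Htr3a-KO minus control on the log2 scale at E14.5, E18.5 and P2 for the 33 tested genes, with bars of ± SE; filled points are genes whose 3 and 3 arrays do not overlap. Filled points number 2 at E14.5, 16 at E18.5 and 1 at P2, and points lie mostly right of 0 at each age.

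Within groups the members went up and down together from array to array. E18.5 control array 1 was the lowest of its 3 arrays for 26 of 33 members, where it was the lowest for 31.2% of all genes, and array 3 was the highest for 25, against 24.4%. P2 control array 1 was the lowest for 29 against 28.8%, and P2 Htr3a-KO array 1 the highest for 31 against 44.7%. E14.5 control array 3 was the highest for 25 against 38.6%. Members at E18.5 had a median SD of 0.51 in controls and 0.17 in Htr3a-KO samples, where the medians over all genes were 0.16 and 0.13. Values of the members within an array are not independent readings of a condition.

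**Figure D5:**
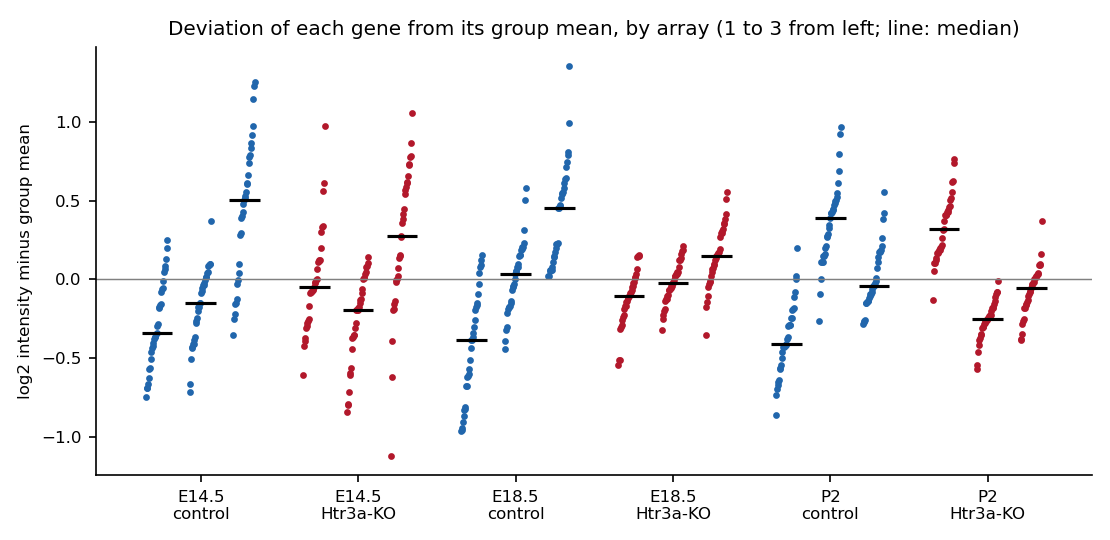
Log2 intensity of each of the 33 tested genes minus the mean of its group, for each array, with the genes of an array drawn from low to high from left to right and a black line at their median. Whole columns shift: E18.5 control array 1 and P2 control array 1 lie mostly below 0, E14.5 control array 3, E18.5 control array 3 and P2 Htr3a-KO array 1 mostly above it, and the 3 E18.5 Htr3a-KO arrays stay closest to it.

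Different probe sets of a gene mostly told the same direction. The 34 members had 82 single-gene probe sets. Of 22 members with more than 1 above the filter, all probe sets had the same sign from E18.5 to P2 in 22 in controls and in 21 in Htr3a-KO samples, where Id4 was the exception. Sizes could differ, as for S100b, Gfap and Ptprz1. Nes and Bcan lie 7.079 kb apart on chromosome 3, and of these neighbours Bcan rose at both steps in both genotypes and Nes passed at none.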

How the data were processed

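RNA of GFP-positive cells sorted from GAD65-GFP brains was measured on Affymetrix Mouse Genome 430 2.0 arrays. Each sample pooled at least 4 brains of a litter, per the labels' protocols, so p-values measure the spread between such pools. The deposited values are log2 intensities that the authors normalized with RMA in Partek Genomic Suite 6.6, per the submitters' processing notes. RMA brings all arrays to 1 distribution, so a shift common to most genes cannot be seen.

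Of 45101 probe sets, 34958 name 1 gene in the platform annotation, 932 several and 9211 none. Each gene took its probe set with the highest mean, and the lowest 30% of means (under 5.255) were left out. limma 3.58.1 in R 4.3.3 fitted the 6 group means over 14292 genes, with Benjamini-Hochberg adjustment and a threshold of 0.05, and was tested on simulated data. The simulated noise was independent between genes, so that check does not cover genes that move together, as the members did. Promoter letters came from RefSeq's table for GRCm38.p6. Members past the threshold are given in every array, others by range and count; up to 4 genes of other lists were named by smallest p. The members and lists were chosen with earlier results of these data known. Alternatives were the filter, the probe set rule, the scaling, the variance model, array weights, a replicate block, a threshold of 0.10, the arrays fitted and each array left out.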

Additional observations from a re-analysis of the deposited data

How the results depend on the processing

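Of 132 calls of a member in an age comparison, 116 passed under every alternative run for them. Over 2240 alternative values 2181 kept their direction and side of the threshold, 59 no longer passed and 0 changed sign. Some alternatives could not do otherwise: a threshold of 0.10 cannot lose a call made at 0.05. That threshold, the variance model, the replicate block, the arrays fitted and the test of every probe set leave each difference unchanged, so they cannot change a sign. Member counts moved from 7 to between 5 and 9 (E18.5 minus E14.5, controls), from 13 to between 9 and 13 (Htr3a-KO), from 28 to between 25 and 30 (P2 minus E18.5, controls) and from 27 to between 26 and 29 (Htr3a-KO). Beyond arrays left out, calls were lost as follows (adjusted p, limma). Fitting only the arrays compared lost Ednrb in the first control step (0.0624), Gfap from E18.5 to P2 (0.103), Gfap (0.0634) and Mt2 (0.0502) over the whole span in controls, and Glul in the first Htr3a-KO step (0.0668). In that same Htr3a-KO step the mean of the probe sets lost Glul (0.309) and Slc4a4 (0.112, at +0.56), quantile normalization lost Glul (0.05001) and Acsbg1 (0.0549), and median centring lost Glul (0.0648). Between genotypes 0 members passed at E14.5 and E18.5, 2 and 10 with array weights, and 0 to 1 when 1 array was left out; the cause was not tested. Counts over all genes ranged more widely: 1571 became 916 to 3166, 2818 became 1665 to 3920, 2163 became 928 to 4795, 4070 became 2517 to 5788, 5601 became 4659 to 6670 and 5938 became 4973 to 6981, and genotype calls of 2, 3 and 5 became 0 to 135, 2 to 876 and 0 to 21; the setting that tests every probe set counts probe sets and is left out of these ranges. Median centring moved the median of all genes to −0.13 for E18.5 minus E14.5 and P2 minus E14.5 in Htr3a-KO samples and to −0.11 for P2 minus E14.5 in controls; the members' medians there were +0.20, +2.20 and +2.30.

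With the replicate number as a block, 8, 28 and 29 members passed in the 3 control comparisons of ages (first step, second step, whole span), 10, 28 and 28 in the Htr3a-KO ones, and 0 between genotypes. The block lost Gfap from E18.5 to P2 in controls (0.0538) and Glul (0.0624), Acsbg1 (0.0552) and Slc4a4 (0.0565) in the first Htr3a-KO step. Same-numbered arrays had correlations of −0.54 to 0.38 over 45 pairs, 12 of them over 0.1, so the numbers were not taken as a pairing.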
